A study of Mus musculus with 10 samples.

Results

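Peg10 and Sgce are imprinted neighbours on mouse chromosome 6, and their mRNA levels were examined together with those of 8 genes around them in knockout mouse embryonic stem cells (mESCs). The genes were Peg10, Sgce, Casd1, Ppp1r9a, Pon1, Pon2, Pon3, Asb4, Calcr and Tfpi2, that is, 10 of the 34591 genes measured. They were picked by symbol, and the region was chosen by the low levels of Peg10 and Sgce in knockout versus wild-type (WT) cells, so those differences are given as a description with no test. RNA sequencing covered 10 libraries from 5 lines, with 2 libraries per line. The parent line was the male C57/BL6 Bruce-4 mESC line, grown feeder-free in 2iL medium with a MEK inhibitor, a GSK3β inhibitor and LIF. WT cells were compared with a pair of clones per knockout, D2A7 and D1E6 for Dnttip1 KO and E2E8 and E2G7 for Elmsan1 KO. Dnttip1 and Elmsan1 encode scaffold subunits of the histone deacetylase complex MiDAC. Each clone grew from 1 sorted cell after Cas9 and guide plasmids had been transfected, and whether the WT cells were cloned is not given in the sources used here. A difference between a clone and WT therefore cannot be told apart from what single-cell cloning brings. The study calls the 2 libraries of a line biological replicates. How their cultures were separated is not given in the sources used here, and p-values measure only the spread between these libraries. Where a knockout is compared, they take the 4 libraries of its 2 clones as independent, although libraries of a clone are correlated.

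Levels are FPKM, that is, fragments per kilobase of exon relative to all fragments of the library, after scaling of the libraries to each other. Differences are on the scale of log2(FPKM + 0.1) unless stated otherwise. A gene is "called" where limma gave an unadjusted p under 0.01 together with a change of 1.5-fold or more, and a gene was tested where at least 2 libraries of the comparison reached 0.1 FPKM. Libraries held 30182379 to 84291842 fragments on genes. The WT libraries were the shallowest and the E2G7 libraries the deepest. Dnttip1 was at 8.45 and 8.35 FPKM in WT, 4.57 and 4.56 in D2A7 and 2.58 and 2.60 in D1E6. Elmsan1, listed under its older name C130039O16Rik, was at 5.73 and 5.34 FPKM in WT, 4.89 and 5.13 in E2E8 and 4.63 and 4.75 in E2G7. The edits were small insertions or deletions, which a gene level cannot show. Summed over 8 embryonic stem cell markers, the libraries ranged from 973 to 1244 FPKM, and none of the 7 markers tested was called in any comparison. Fut4 was at 0 to 0.0725 FPKM, and the 6 fibroblast markers summed to at most 0.144 FPKM.

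In genomic imprinting, DNA methylation laid down in the germ line leaves 1 parental copy of a gene active. Peg10 and Sgce are expressed from the paternal copy and start next to each other on opposite strands, at a control region that is methylated on the maternal copy. Peg10 descends from a retrotransposon of the Ty3/gypsy type and is needed to form the placenta. Sgce encodes epsilon-sarcoglycan, a membrane protein of the dystrophin-associated complex, and loss of the human gene's paternal copy causes myoclonus-dystonia. Several neighbours, among them Asb4, Calcr, Ppp1r9a and Tfpi2, have a maternal bias in some tissues such as the placenta or brain. The cells were of an inbred strain and the values carry no allele, so parental origin was not measured.

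The guides used to make the clones are shown because each clone was made with 1 of them, with the 12 bases nearest the PAM in capitals.
Dnttip1 guide: acaucggcAGGUGCAGCGAA
Elmsan1 guide: gcucucuuGGCGGCUAAGGC
Their targets lie on chromosomes 2 and 12. Among 360200 sites with an NGG PAM within 2 Mb of the start of Peg10 (NCBIM37, both strands), the nearest match differed from the Dnttip1 guide at 5 positions and from the Elmsan1 guide at 6. The nearest match was found at 3 sites for the former and at 7 for the latter.

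Promoter sequences of RefSeq covered 8 of the 10 genes with 14 promoters, and Peg10 and Sgce were not among them. For Casd1, the nearest gene on the side of Sgce, 1 of 2 listed promoters is printed (GRCm38.p6, chr6:4600661-4600960, plus strand), because Casd1 differed between clones and this promoter holds a motif of interest. Capitals mark TGCCGC, the core bound by ZFP57, a zinc finger protein that keeps imprints when the motif is methylated.
Casd1 promoter: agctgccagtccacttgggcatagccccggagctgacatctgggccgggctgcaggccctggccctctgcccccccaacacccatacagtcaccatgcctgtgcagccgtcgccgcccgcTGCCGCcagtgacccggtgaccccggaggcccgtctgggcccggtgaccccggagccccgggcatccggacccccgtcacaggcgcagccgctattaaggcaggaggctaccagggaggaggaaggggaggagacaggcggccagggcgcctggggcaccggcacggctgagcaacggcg
It held 23 CpG, more than 78.5% of the 32851 promoters of the same length, whose median was 7. TGCCGC on either strand was present in 11.6% of all promoters. A Calcr promoter (2 copies) and the Pon3 promoter (1 copy) held it as well, and the other listed Casd1 promoter held 0. Whether the motif bears on the level of Casd1 was not tested.

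Peg10 was the most reduced gene of the region in every clone. The gene (ENSMUSG00000092035, NCBIM37 chr6:4697306-4710514, plus strand) stood at 12.3 FPKM in both WT libraries. It was at 0.00965 and 0.0169 FPKM in D2A7, 0.764 and 0.693 in D1E6, 0.443 and 0.492 in E2E8, and 0.632 and 0.723 in E2G7. All 8 knockout libraries lay below WT, and D2A7 lay below every other knockout library. As a share of the WT level, Peg10 was at 5.94% in D1E6, 3.81% in E2E8 and 5.52% in E2G7. In D2A7 the 2 libraries held 4 and 6 Peg10 fragments, against 5579 in WT. The share there was 0.108% (95% counting interval 0.0519 to 0.199%), that is, WT was 924 times higher (503 to 1928). On the log2 scale the pooled difference was -5.34 ± 1.01 (SE) for Dnttip1 KO (n = 4) and -4.22 ± 0.19 for Elmsan1 KO (n = 4) versus WT (n = 2). Both use the same WT libraries. Here n counts libraries, and the 4 libraries of a knockout come from 2 clones. The SE takes these libraries as independent, although the estimated correlation within clones was 0.704 (Dnttip1 KO versus WT) and 0.768 (Elmsan1 KO versus WT). With a pseudocount of 1 the differences were -3.33 and -3.08, and voom on recovered fragments gave -6.97 for Dnttip1 KO. Without either WT library the Dnttip1 KO difference was -5.33 or -5.34 and was no longer called. In RNA of whole cultures, fewer cells with a transcript and less of it per cell cannot be told apart.

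Sgce, which starts 102 bases from Peg10 on the other strand (ENSMUSG00000004631, NCBIM37 chr6:4624350-4697204), was lower than WT in the same 8 libraries. It was at 1.53 and 1.59 FPKM in WT, 0.0677 and 0.0730 in D2A7, 0.227 and 0.241 in D1E6, 0.472 and 0.469 in E2E8, and 0.250 and 0.210 in E2G7. D2A7 was again the lowest line, but E2E8 kept the highest level of the clones, with 30.1% of WT (26.2 to 34.5%). The shares were 4.50% (2.91 to 6.65%) in D2A7, 15.0% (11.9 to 18.6%) in D1E6 and 14.7% (12.2 to 17.6%) in E2G7. Sgce in D2A7 rests on 25 fragments. The pooled log2 difference from WT was -2.80 ± 0.37 for Dnttip1 KO and -1.94 ± 0.31 for Elmsan1 KO. With a pseudocount of 1 these were -1.16 and -0.93, and with voom -3.59 and -2.28.

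**Figure D1:**
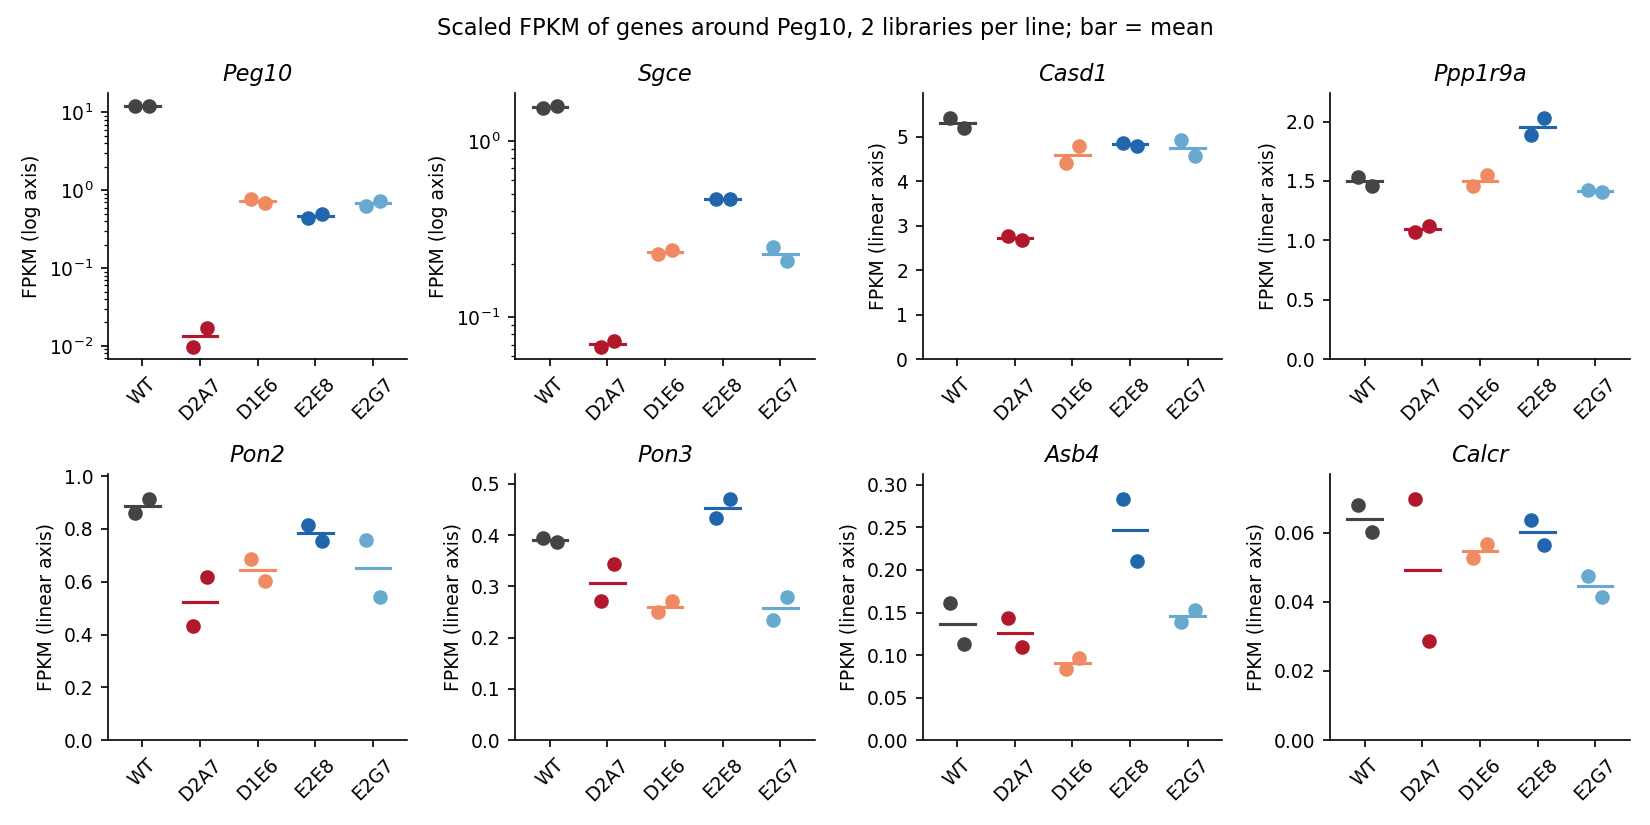
Scaled FPKM (vertical axis, logarithmic for Peg10 and Sgce and linear for the rest) of 8 of the 10 genes in each of the 10 libraries; points are libraries and bars the mean of the 2 libraries of a line. Peg10 and Sgce are below WT in every knockout library, whereas no clone mean of the other genes is below 51.3% of WT (Casd1 in D2A7).

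In both pooled comparisons, Peg10 and Sgce were the 2 members called lower among the 7 that could be tested, and none was called higher. Over all genes, 3.25% were called lower and 3.26% higher in Dnttip1 KO versus WT (17434 tested), and 3.68% lower and 2.74% higher in Elmsan1 KO versus WT (17212 tested). Since these comparisons led to the choice of the region, nothing is read from the counts. The median difference of the 7 members was -0.54 in Dnttip1 KO and -0.14 in Elmsan1 KO, beside 0.02 and 0.00 over all genes tested.

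The balance between Peg10 and Sgce changed with the line. Per length of exon, Peg10 was 8.0 and 7.70 times the level of Sgce in the WT libraries. The ratio was 3.36 and 2.88 in D1E6 and 2.53 and 3.45 in E2G7, whose libraries overlap. In E2E8 the genes stood at nearly the same level, with ratios of 0.938 and 1.05. D2A7 was the line in which Peg10 lay clearly below Sgce, at 0.142 and 0.231. The ratio was thus lower than in WT in all 8 knockout libraries, and its order over the lines was WT, D1E6 together with E2G7, E2E8 and D2A7.

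**Figure D2:**
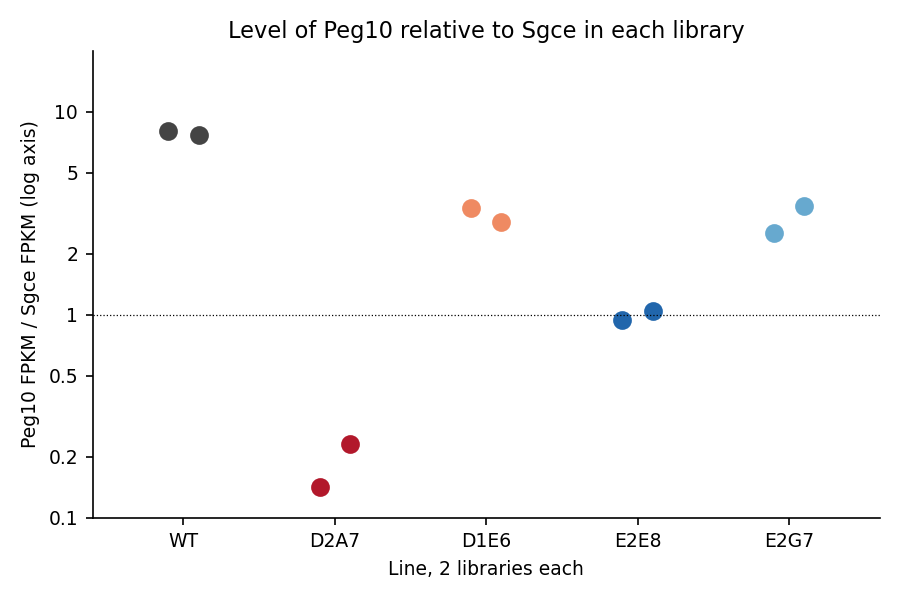
Ratio of Peg10 FPKM to Sgce FPKM (logarithmic axis) in each library, by line; each point is 1 library and the dotted line marks equal levels. WT libraries sit at 8.0 and 7.70, D1E6 and E2G7 between 2.53 and 3.45, E2E8 at 0.938 and 1.05 and D2A7 at 0.142 and 0.231.

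Comparisons that leave WT out are separate from the choice of the region. In D2A7 versus D1E6, both knocked out for Dnttip1, 3 of the 7 members were called lower (Peg10, Sgce and Casd1) and 0 higher. Over all 16991 genes tested, 3.73% were lower and 9.2% higher. Both D2A7 libraries had Peg10 and Sgce under 0.1 FPKM, so these genes entered the comparison through D1E6 alone and the count is no support for a difference of the region. With no filter on low values both were called as well, at the same log2 differences (limma adjusted p = 0.00154 for Peg10 and 0.013 for Sgce). Peg10 was lower in D2A7, at a log2 difference of -2.87 ± 0.17 (SE, limma adjusted p = 0.000751), with both D2A7 libraries below both D1E6 libraries. Its size depends on the pseudocount, since D2A7 is close to 0: it was -0.77 with a pseudocount of 1 and -5.00 with 0.01. Sgce differed by -0.97 ± 0.19 (limma adjusted p = 0.016) and Casd1 by -0.73 ± 0.07 (limma adjusted p = 0.00201). Sgce was at -0.21 with a pseudocount of 1, where its call was lost, and at -1.60 with 0.01. The call was also lost without either D2A7 library (-0.95 or -0.99), and without either D1E6 library Peg10 and Sgce missed the filter on low values. Ppp1r9a stayed under the fold threshold at -0.42 ± 0.09 (limma adjusted p = 0.0214). Under quantile normalization Ppp1r9a was called lower as well (-0.60, limma adjusted p = 0.00764). Quantile normalization changed the split over all genes from 634 lower and 1564 higher to 978 and 1162.

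In E2E8 versus E2G7, both knocked out for Elmsan1, Sgce and Pon3 were called higher and no member was called lower. Over all 16723 genes tested, 3.27% were called lower and 10.5% higher. Sgce differed by 0.79 ± 0.14 (limma adjusted p = 0.00897). Peg10 differed in the opposite direction, by -0.45 ± 0.12 (limma adjusted p = 0.0343), a fold of 1.37 that stayed under the 1.5-fold threshold. Pon3 differed by 0.63 ± 0.14 (limma adjusted p = 0.0189). Under quantile normalization Peg10 was called lower and neither Sgce (0.54) nor Pon3 (0.38) was called, and the split over all genes moved from 547 lower and 1752 higher to 820 and 1031. The Sgce call was also lost without either E2E8 library or E2G7 replicate 2 (0.71 to 0.80), and the Pon3 call without any 1 of the 4 libraries (0.54 to 0.72).

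When the knockouts were set against each other, no member was called in either direction. Over all 17588 genes tested, 0.415% were called lower and 1.11% higher, 73 and 195 genes, and quantile normalization gave 139 and 148. Peg10 was at -1.12 ± 0.71 (limma adjusted p = 0.426) and Sgce at -0.86 ± 0.33 (limma adjusted p = 0.299) in Dnttip1 KO versus Elmsan1 KO. Asb4 was at -0.49 ± 0.20 (limma adjusted p = 0.306). With an estimated correlation within clones of 0.856, the adjusted p of Peg10 and of Sgce was 1. voom on the recovered fragments called 0 members as well. A single fit over all 10 libraries called both Peg10 and Sgce lower, and quantile normalization called Asb4. The member median was -0.43 beside 0.01 over all genes. Over 533 chromosome 6 genes outside the region it was itself -0.17. With the chromosome's shift taken out, Peg10 was at -0.94 and Sgce at -0.69, neither of them called.

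Chromosome 6 itself was shifted in 3 of the 4 clones, and the values of the region are also given relative to it. Over 533 genes of the chromosome that lie more than 2 Mb from Peg10 and average at least 1 FPKM, the median difference from WT was 0.43 in D1E6, 0.39 in E2E8 and 0.29 in E2G7. It was -0.08 in D2A7. Over 11037 genes of the other autosomes it was 0.01 in D2A7 and -0.01 in each of the other clones. Peg10 and Sgce thus went against the rise of their chromosome. Relative to it, Peg10 was at -6.69 in D2A7, -4.33 in D1E6, -4.83 in E2E8 and -4.28 in E2G7. Sgce was at -3.21, -2.74, -1.93 and -2.63 in the same order. Among 815 expressed genes of the chromosome, Peg10 ranked lowest in every clone. Sgce ranked 2 in D2A7, 5 in D1E6 and E2G7 and 10 in E2E8. The region was chosen by these same differences from WT, so low ranks follow from that choice and are a description only. The part of the chromosome's shift in these levels was not tested beyond this centring.

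**Figure D3:**
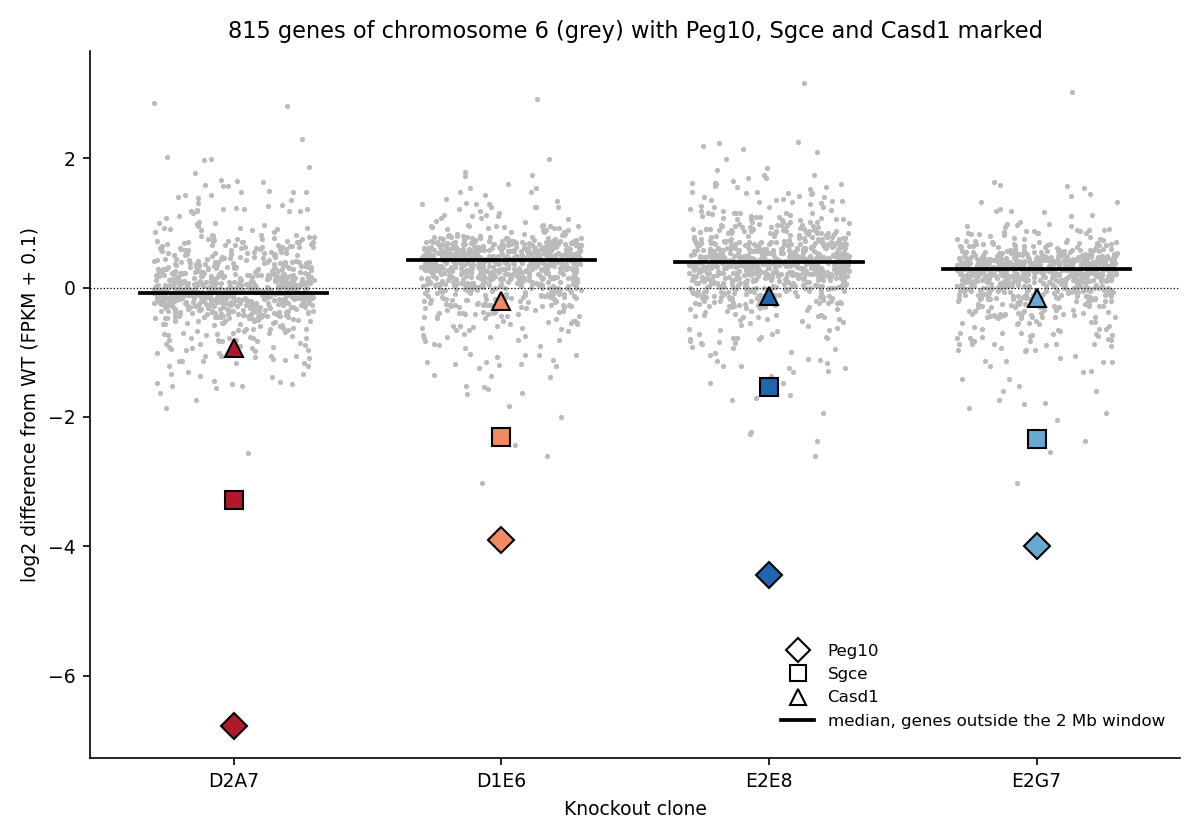
Difference from WT, log2(FPKM + 0.1), of 815 expressed genes of chromosome 6 (grey points) in each clone, with Peg10 (diamonds), Sgce (squares) and Casd1 (triangles); black bars are the chromosome's median outside the 2 Mb window. The bar lies at 0.43, 0.39 and 0.29 in D1E6, E2E8 and E2G7 and at -0.08 in D2A7, while Peg10 is the lowest point in all 4 clones. The region was chosen by the low Peg10 and Sgce levels versus WT.

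The chromosome's own median differed by -0.49 between D2A7 and D1E6, and the clones were also compared after centring on chromosome 6. The Peg10 difference, which again passed the filter through D1E6 alone, was then -2.37 ± 0.17 (limma adjusted p = 0.00136) and was still called. Sgce fell under the threshold, at -0.47 ± 0.19 (limma adjusted p = 0.106), as did Casd1, at -0.23 ± 0.07 (limma adjusted p = 0.0469). Ppp1r9a was at 0.08 and Pon2 at 0.23, against -0.42 and -0.27 without centring. Asb4 was at 0.75 ± 0.21 (limma adjusted p = 0.0465) and Pon3 at 0.67 ± 0.17 (limma adjusted p = 0.0374), neither of them called. In E2E8 versus E2G7 the chromosome differed by only 0.10. Sgce remained called there at 0.69 ± 0.14 (limma adjusted p = 0.015), and Pon3 was no longer called at 0.52 ± 0.15 (limma adjusted p = 0.0352).

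**Figure D4:**
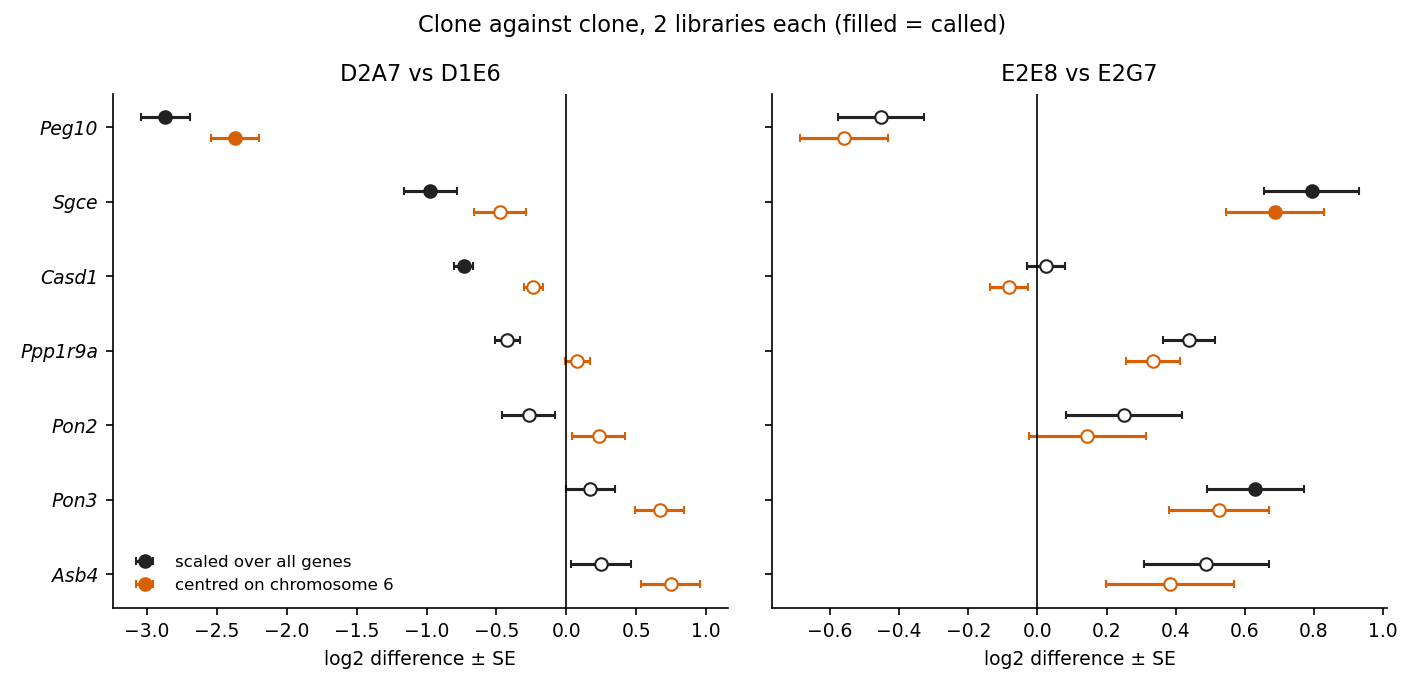
Log2 differences ± SE between the clones of 1 knockout for the 7 members tested, scaled over all genes (black) or centred on chromosome 6 (orange); filled points were called. Peg10 stays called in D2A7 versus D1E6 after centring (-2.37), Sgce and Casd1 do not, and in E2E8 versus E2G7 Sgce and Peg10 lie on opposite sides of 0.

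Casd1 encodes an enzyme that adds O-acetyl groups to sialic acid and starts 146 kb from Peg10 on the side of Sgce. It was at 5.43 and 5.19 FPKM in WT, 2.78 and 2.67 in D2A7, 4.41 and 4.79 in D1E6, 4.87 and 4.80 in E2E8, and 4.94 and 4.58 in E2G7. All 8 knockout libraries were below both WT libraries, but only D2A7 was far below, at 51.3% of WT. Relative to chromosome 6, Casd1 was at -0.86 in D2A7, -0.63 in D1E6, -0.52 in E2E8 and -0.45 in E2G7.

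Ppp1r9a, on the other side, encodes neurabin, an actin-binding protein of synapses. It was at 1.54 and 1.46 FPKM in WT, 1.07 and 1.12 in D2A7, 1.46 and 1.55 in D1E6, 1.88 and 2.03 in E2E8, and 1.42 and 1.41 in E2G7. D2A7 was below and E2E8 above every other line. D1E6 overlapped WT and E2G7 lay just under it. In E2E8 versus E2G7 it differed by 0.44 ± 0.08 (limma adjusted p = 0.00856), a fold of 1.36 that was not called.

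The Pon genes encode paraoxonases, enzymes that hydrolyse lactones and lipid peroxides. Pon1 had no fragment in any of the 10 libraries, so its level was not detectable at this depth. Pon2 was at 0.859 and 0.915 FPKM in WT, 0.432 and 0.617 in D2A7, 0.687 and 0.602 in D1E6, 0.815 and 0.755 in E2E8, and 0.758 and 0.544 in E2G7. The 8 knockout libraries were below WT, with wide spread within D2A7 and E2G7, and Pon2 was called in no comparison before centring on chromosome 6. Pon3 was at 0.394 and 0.386 FPKM in WT, 0.271 and 0.344 in D2A7, 0.250 and 0.271 in D1E6, 0.434 and 0.471 in E2E8, and 0.235 and 0.280 in E2G7. E2E8 was the line above WT, and each value rests on 30 to 83 fragments.

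Asb4, which encodes an ankyrin repeat protein of ubiquitin ligases, was at 0.161 and 0.113 FPKM in WT, 0.143 and 0.110 in D2A7, 0.0840 and 0.0966 in D1E6, 0.284 and 0.210 in E2E8, and 0.139 and 0.153 in E2G7. E2E8 was the highest line, and the difference from E2G7 of 0.49 ± 0.18 was not called (limma adjusted p = 0.0776). With voom on recovered fragments it was called higher in E2E8 (0.75, limma adjusted p = 0.0158). Calcr, the calcitonin receptor gene, had 6 to 19 fragments per library, and its levels of 0.0287 to 0.0698 FPKM fell under the filter on low values. Tfpi2, which encodes a protease inhibitor of the extracellular matrix, had 1 fragment in each of 2 libraries and 0 in the other 8.

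Of 25 annotated genes starting within 2 Mb of Peg10, 15 averaged at least 0.1 FPKM, and 8 of these were not members. Relative to chromosome 6, the median of these 8 genes was -0.21 in D2A7, -0.16 in D1E6, -0.04 in E2E8 and -0.16 in E2G7. Below the chromosome's median lay 7 of the 8 in D2A7, 6 in D1E6, 4 in E2E8 and 7 in E2G7. Among the members, Casd1 and Pon2 lay below it in every clone, along with Peg10, Sgce, Ppp1r9a and Pon3. Versus WT, none of the 8 was called lower in Dnttip1 KO (3.25% over all genes), and 1 was called lower in Elmsan1 KO (3.68% over all genes). That gene was Samd9l, which encodes an interferon-inducible protein and starts 1348 kb away. It was at 1.44 and 1.43 FPKM in WT, 1.03 and 0.868 in D2A7, 0.491 and 0.493 in D1E6, 0.791 and 0.767 in E2E8 and 0.685 and 0.689 in E2G7, a difference of -0.88 (limma adjusted p = 0.0134) in Elmsan1 KO. All 8 knockout libraries were below WT and D1E6 was the lowest line, at -1.80 relative to the chromosome, but the Dnttip1 KO difference of -0.96 was not called (limma adjusted p = 0.113). In D2A7 versus D1E6, 3 of the 8 were lower, namely Bet1 (-0.67), Slc25a13 (-0.85) and Shfm1 (-0.72), beside the -0.49 of the chromosome, and Samd9l was higher (0.82). The shares over all genes there were 3.73% lower and 9.2% higher. In E2E8 versus E2G7, where they were 3.27% and 10.5%, Pdk4, a kinase of pyruvate metabolism, was higher by 0.72 (limma adjusted p = 0.00305). Ccdc132, Gm9835 and Dync1i1 were called in no comparison.

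**Figure D5:**
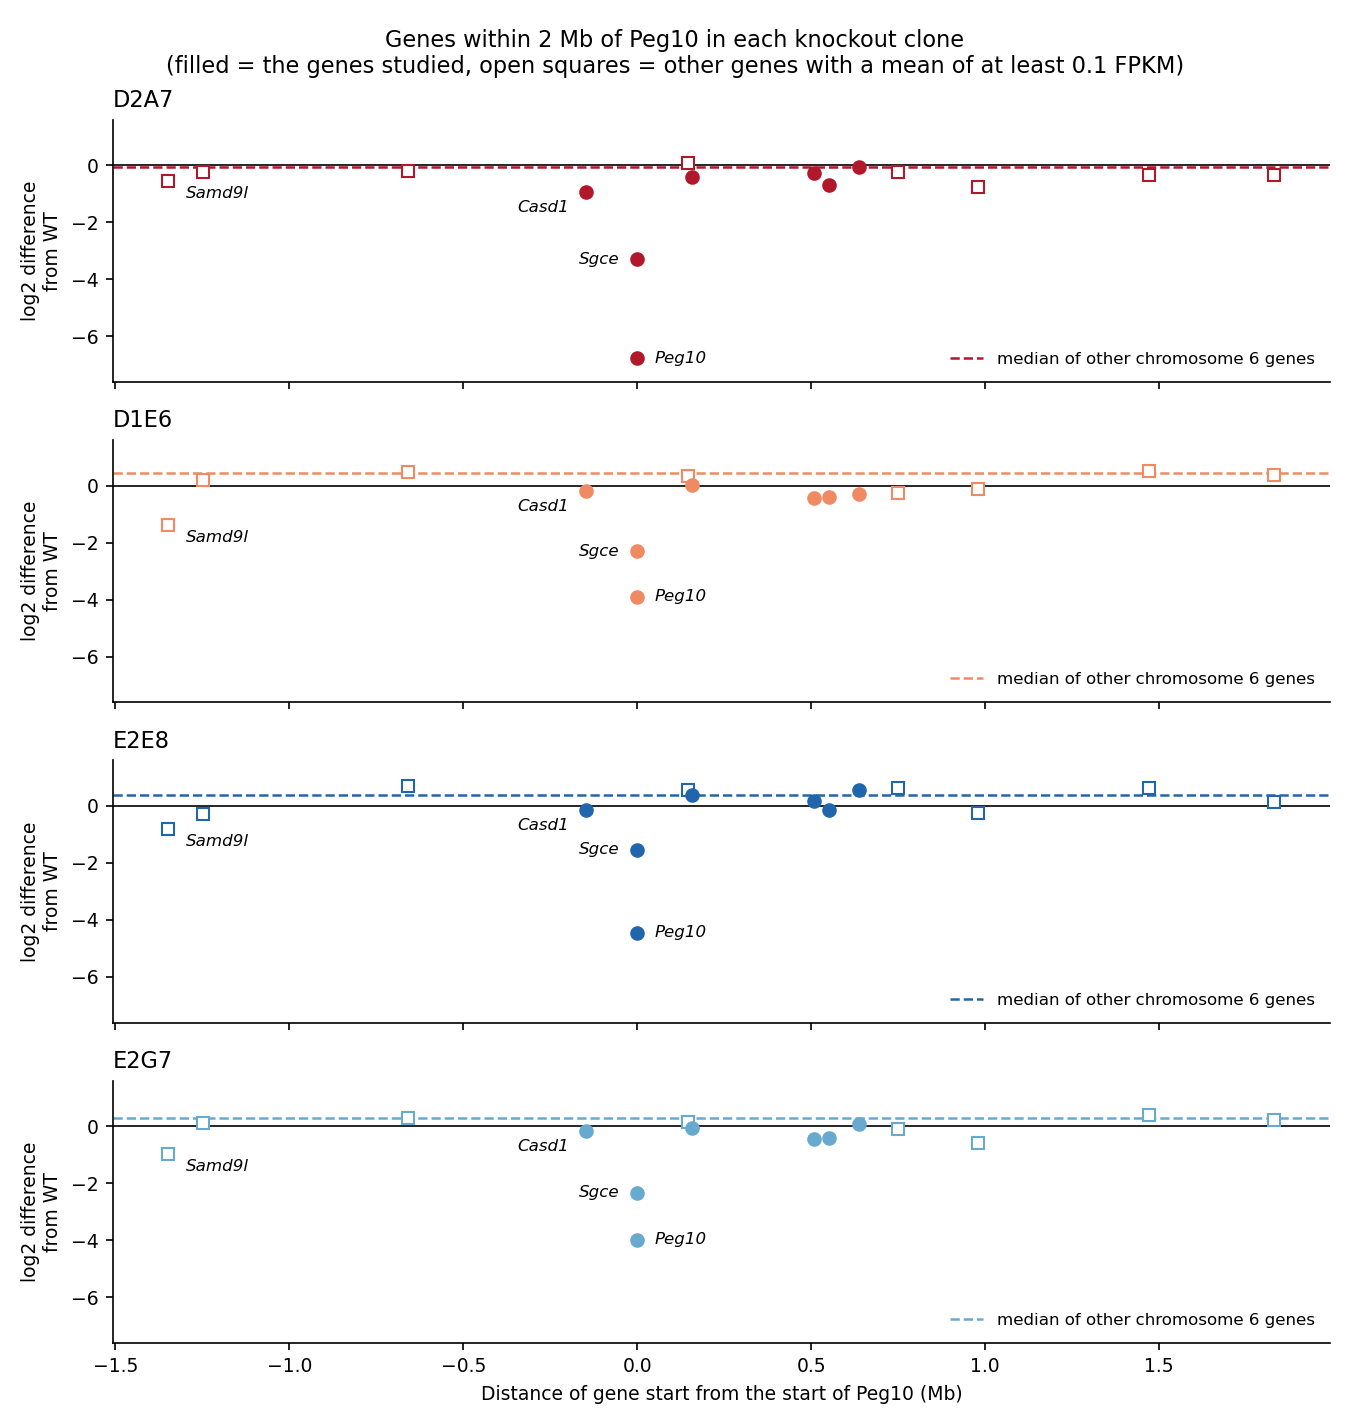
Difference from WT, log2(FPKM + 0.1), of the 15 expressed genes against the distance of their start from that of Peg10 in Mb, by clone; filled circles are the genes studied, open squares other genes and the dashed line the chromosome 6 median. Peg10 (-6.77 to -3.90) and Sgce (-3.29 to -1.54), whose low levels led to the choice of the region, stand below all other genes in every clone.

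Across the 10 libraries, Peg10 and Sgce correlated at Pearson's r = 0.938 on log2 values, with Spearman's rho = 0.576. The libraries form 5 lines, and WT lies far above the clones for both genes. Among 12212 other genes at a mean of at least 1 FPKM, those most like Peg10 were Zic2 (0.982), D630039A03Rik (0.981), Cdc37l1 (0.980), Ccnd1 (0.975) and Pirt (0.974). Ccnd1, the cyclin D1 gene, averaged 54.6 FPKM in WT, 27.7 in D2A7, 37.5 in D1E6, 31.3 in E2E8 and 37.5 in E2G7. The genes most like Sgce were Pcnp (0.993), Nxf3 (0.989), Ept1 (0.984), Fabp5 (0.983) and 2810417H13Rik (0.983). The correlation does not measure the size of a change, which varied widely. Pcnp averaged 43.4 FPKM in WT and 35.2 to 39.1 in the clones, and Cdc37l1 13.94 and 11.37 to 12.45. Nxf3 averaged 8.08 FPKM in WT, 0.213 in D2A7, 0.436 in D1E6, 1.53 in E2E8 and 0.482 in E2G7, the same order of lines as Sgce apart from E2G7 and D1E6, which lay close together for both. None of the 10 genes lies on chromosome 6.

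Of 4 other imprinted genes of chromosome 6 (Mest, Copg2, Klf14 and Nap1l5), 3 were tested, and 0 of these were called lower versus WT in either knockout. Over all genes, 3.25% were called lower in Dnttip1 KO and 3.68% in Elmsan1 KO, so nothing is read from this count. In Dnttip1 KO versus WT, Mest was at -0.90, Nap1l5 at -0.85 and Copg2 at 0.26. In Elmsan1 KO versus WT, Nap1l5 was at -1.21 and Mest at 0.07. Mest, a paternally expressed hydrolase gene, was at 22.5 and 23.5 FPKM in WT, 8.18 and 8.13 in D2A7, 17.9 and 18.7 in D1E6, 26.3 and 25.9 in E2E8, and 21.9 and 22.5 in E2G7. D2A7 was lower than D1E6 (-1.16, limma adjusted p = 0.000442), beside -0.49 for the chromosome. Mest was also called lower in Dnttip1 KO versus Elmsan1 KO (-0.97, limma adjusted p = 0.296), beside -0.17 for the chromosome. Over all genes, 0.415% were called lower there. Copg2, a coat protein gene that neighbours Mest, was highest in E2E8, at 47.4 and 45.8 FPKM against 24.0 and 26.4 in WT. It was called higher in Elmsan1 KO versus WT (0.66, limma adjusted p = 0.0565). The 0.66 is not centred on chromosome 6, whose median difference from WT was 0.39 in E2E8 and 0.29 in E2G7. Nap1l5, another paternally expressed gene, was at 0.423 and 0.538 FPKM in WT, 0.178 and 0.139 in D2A7, 0.327 and 0.268 in D1E6, 0.250 and 0.390 in E2E8, and 0.0525 and 0.0489 in E2G7. All 8 knockout libraries were below WT, and E2E8 was higher than E2G7 by 1.46 (limma adjusted p = 0.00629). Both E2G7 libraries had Nap1l5 under 0.1 FPKM. The gene thus entered that comparison through E2E8 alone, and its call is no support for a difference. Whether the counting used strand is not given in the sources used here, so overlapping genes such as Mest and Copg2 are uncertain. Klf14 was at or near 0.

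Peg10 is abundant in the placenta, so the 8 trophoblast markers were summed. They reached 33.6 and 30.2 FPKM in D2A7, where Peg10 was lowest, against 14.8 and 13.5 in WT, 21.3 and 20.6 in D1E6, at most 12.5 in E2E8 and 19.7 and 20.9 in E2G7. Krt8, a keratin that other epithelia also express, made up most of each sum (8.25 to 29.8 FPKM). Eomes, a T-box factor also used in early mesoderm and endoderm, was at 1.84 to 3.23 FPKM. It was called higher in Elmsan1 KO versus WT (0.70, limma adjusted p = 0.00905), where 2.74% of all genes were called higher. Ascl2 was at 0.456 to 1.66 FPKM. Other defining markers were at or near 0, with Cdx2 at 0.00653 to 0.166 FPKM, Elf5 at 0 to 0.0128 and Hand1 at 0 to 0.0207. Of 4 trophoblast markers tested in D2A7 versus D1E6, Krt8 and Eomes were called, 1 in each direction. Over all genes, 3.73% were called lower and 9.2% higher in that comparison, so nothing is read from such counts. The 4 neural progenitor markers summed to 13.2 and 13.8 FPKM in D2A7 and 4.55 to 9.53 in the other libraries, with 1 call of 2 tested in that comparison (Sox1, higher). Nes, an intermediate filament gene, made up most of that sum, at 4.14 to 12.9 FPKM with the highest values in D2A7. It was called higher versus WT in Dnttip1 KO (1.30, limma adjusted p = 0.0178) and Elmsan1 KO (0.80, limma adjusted p = 0.0636). The shares of all genes called higher there were 3.26% and 2.74%. The 6 primitive endoderm markers summed to 0.614 to 1.41 FPKM, with 1 call of 3 tested in D2A7 versus D1E6 (Gata4, higher). The part of these markers in the levels of Peg10 was not tested.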

How the data were processed

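Total RNA of mESCs was sequenced as paired ends from stranded, ribosomal RNA-depleted libraries. Per the methods, the authors mapped reads to NCBIM37 and counted fragments per gene with HTSeq. Per the submitters' processing notes and methods, edgeR (3.16.5) served for normalization and limma for testing in R (3.3.1). The values used here are FPKM (fragments per kilobase of exon, relative to the library total), as the authors deposited them for 34591 genes. Positions came from GENCODE vM1 on NCBIM37, which held 97.2% of the gene identifiers. Each low FPKM value was a multiple of what 1 fragment is worth, so fragments could be recovered. Between 98.3% and 98.6% of values under 100 such steps lay within 0.05 of a whole step. The recovered totals were 30182379 to 84291842 fragments per library. Intervals on fragments are exact 95% Poisson intervals and cover counting error only.

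FPKM were divided by a median-ratio factor over 11270 genes (0.965 to 1.013) and tested as log2(FPKM + 0.1). A fold change on this scale understates the change of low genes. Genes entered a comparison with at least 0.1 FPKM in at least 2 of its libraries. limma (3.58.1, R 4.3.3) was run with a mean-variance trend, two-sided, with Benjamini-Hochberg adjustment over all genes tested. As in the methods, calls needed a change of 1.5-fold or more together with p under 0.01 before adjustment. The scripts were tested on simulated data with planted changes. Samples were grouped by their titles, which give the genotype and clone. The genes, lists and comparisons were chosen with earlier results of these data known. Named genes were all 10 of the region, other genes within 2 Mb at a mean of at least 0.1 FPKM, the 5 genes most correlated with Peg10 and with Sgce, and examples from the lists. Alternatives were other pseudocounts, filters, scalings and thresholds, voom on recovered fragments, centring on chromosome 6, 1 fit over all libraries, a replicate block, an estimated correlation within clones, and each library left out. Replicate numbers did not pair the samples: deviations of same-numbered libraries correlated at -0.14 to 0.19.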

Additional observations from a re-analysis of the deposited data

Results flagged for a closer look

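The following differences between clones of the same knockout were called. In D2A7 versus D1E6, the log2 difference was -2.87 for Peg10, -0.97 for Sgce and -0.73 for Casd1. In each case both D2A7 libraries lay below both D1E6 libraries. Peg10 and Sgce passed the filter on low values only through D1E6, so their calls are no support for a difference. Both were called with no such filter too, at the same differences, but that fit uses the same values. In E2E8 versus E2G7, Sgce was higher by 0.79 and Pon3 by 0.63, again with no overlap between libraries. Before centring on chromosome 6, clones of 1 knockout thus differed by more than the libraries of a clone in 3 cases. These were Casd1 in D2A7 versus D1E6, and Sgce and Pon3 in E2E8 versus E2G7. After centring, Sgce (-0.47) and Casd1 (-0.23) in D2A7 versus D1E6 were no longer called. The same held for Pon3 (0.52) in E2E8 versus E2G7. The Sgce and Pon3 calls were also lost with some single libraries left out. What else goes with a clone, such as its single-cell history, cannot be told apart from it.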

How the results depend on the processing

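Over 573 values of single members under the alternatives, 479 kept their call or moved by less than the spread between replicates, and 7 small values changed sign in the comparisons without WT. Those were, under quantile normalization, Pon3 in D2A7 versus D1E6 (-0.07) and Casd1 (-0.08) and Pon2 (-0.01) in E2E8 versus E2G7. Under centring on chromosome 6 they were Pon2 (0.23) and Ppp1r9a (0.08) in D2A7 versus D1E6 and Casd1 (-0.08) in E2E8 versus E2G7. Without E2G7 replicate 2, Casd1 was at -0.03. Versus WT, 2 uncalled values of Elmsan1 KO changed sign under centring, Asb4 (0.30 to -0.03) and Ppp1r9a (0.15 to -0.19). Of 2 members called lower in each knockout versus WT, 1 was left at a mean of at least 1 FPKM, because Sgce is removed by that filter. Centring gave 4 in Dnttip1 KO (Casd1 and Pon2 added), and leaving out a library gave 1 to 2 there. For Dnttip1 KO versus Elmsan1 KO the count rose from 0 to 1 under quantile normalization (Asb4) and to 2 in a single fit over all libraries (Peg10, Sgce). The 3 called lower in D2A7 versus D1E6 became 4 under quantile normalization (Ppp1r9a added), 2 with a pseudocount of 1 (Sgce lost), 1 at a mean of at least 1 FPKM (Casd1), 1 under centring (Peg10) and 1 to 2 with a library left out. Without a D1E6 library, Peg10 and Sgce miss the filter on low values. The 2 called higher in E2E8 versus E2G7 became 0 with a pseudocount of 1, 0 at a mean of at least 1 FPKM, 0 under quantile normalization (which added 1 lower, Peg10), 3 with voom (Asb4 added), 1 without a filter, 1 under centring, and 0 to 1 with a library left out. Other than where the filter shows it, the cause was not tested.

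Replicate numbers only name the libraries. With a replicate block, 1 member stayed called higher in E2E8 versus E2G7 (Sgce) and 2 stayed called lower in D2A7 versus D1E6 (Peg10 and Casd1), and member counts of the other comparisons were the same. Over all genes, calls in Dnttip1 KO versus WT went from 1135 to 540 with a pseudocount of 1, 664 at a mean of at least 1 FPKM, 538 with a correlation within clones and 2162 in a single fit. In Elmsan1 KO versus WT they went from 1106 to 525, 603, 486 and 1959, and in Dnttip1 KO versus Elmsan1 KO from 268 to 79, 112, 54 and 1268, with 4 at an adjusted p under 0.05 and 171 with the replicate block. In D2A7 versus D1E6 calls went from 2198 to 1036 with a pseudocount of 1 and 1384 at a mean of at least 1 FPKM, and in E2E8 versus E2G7 from 2299 to 846 and 1254. Without WT replicate 1 or 2, calls were 599 and 688 in Dnttip1 KO and 622 and 682 in Elmsan1 KO. voom on recovered fragments called 1007, 932, 270, 2578 and 2675 genes in the 5 comparisons and moved the split to 615 lower and 392 higher in Dnttip1 KO and 632 and 300 in Elmsan1 KO. Depth limits Peg10 in D2A7, with 10 fragments, and Calcr, Tfpi2 and Pon1 in all lines.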

Other observations

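Genes that keep or remove imprints were measured in every line, and E2E8 stood apart in several of them. Of 12 such genes, 4 were called lower in E2E8 versus E2G7, with a list median of -0.38 beside 0.05 over all genes, of which 3.27% were called lower and 10.5% higher. Dnmt3l, a cofactor of the de novo DNA methyltransferases, was at 5.95 and 6.38 FPKM in WT, 15.5 in both D2A7 libraries, 29.3 and 28.3 in D1E6, 2.89 and 3.11 in E2E8, and 16.1 and 15.4 in E2G7. The E2E8 versus E2G7 difference was -2.36 (limma adjusted p = 0.000483), and Dnmt3b (-1.83), Tet2 (-0.99) and Tet1 (-0.71) differed in the same direction. In Dnttip1 KO versus WT, Dnmt3l was the gene of the list called higher (1.76, limma adjusted p = 0.0265). In Elmsan1 KO versus WT, Zfp57 was the gene called lower (-0.75, limma adjusted p = 0.00173), at 44.2 to 46.9 FPKM against 75.3 and 79.3 in WT. Over all genes, 3.26% were called higher in Dnttip1 KO and 3.68% lower in Elmsan1 KO. The p-values of both genes take the libraries of a clone as independent. Dnttip1 KO versus Elmsan1 KO gave 1 call (Tet2, higher) and D2A7 versus D1E6 gave 2 (Dnmt3l lower, Tet2 higher). Over all genes, 1.11% were called higher in the former, and 3.73% lower and 9.2% higher in the latter.

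Of 10 genes that descend from the same retrotransposon family as Peg10, 5 were tested. Cxx1a (-0.62, limma adjusted p = 0.0563) and Cxx1b (-0.69, limma adjusted p = 0.027) were called lower in Dnttip1 KO versus WT. Over all genes, 3.25% were called lower there. Cxx1a was called higher in E2E8 versus E2G7 (0.67, limma adjusted p = 0.0199), where 10.5% of all genes were. The Cxx1 copies are nearly identical, so reads may be shared between them and their values are uncertain. Of 9 paralogues and partners of the members, 4 were tested. Sgcb, which encodes another sarcoglycan, was called lower in Dnttip1 KO versus WT, with 1.08 and 0.957 FPKM in WT and 0.381 to 0.574 in the 4 Dnttip1 KO libraries (-0.92, limma adjusted p = 0.0347), and no other gene of that list was called in any comparison.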
